A study of Homo sapiens with 5 samples.

Results

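The cytosolic ribosomal protein genes encode the protein part of the ribosome that translates nuclear messages. They were taken here as all gene symbols made of RPS or RPL, a number and at most 1 suffix letter (A, X, Y or L), with or without a further number, which gave 80 of the 27189 genes quantified, 32 of the small subunit (RPS) and 48 of the large subunit (RPL). They were followed in HT1080 cells, an established human fibrosarcoma line used at passages 15 to 18, embedded for 24 h in type I collagen matrices of 2 mg per ml. The LD library came from matrices seeded at a low density of 10 cells per mm3 with no cytokine added, and the HD library from a high density of 50 cells per mm3, also with no cytokine added. The other libraries came from the low density with recombinant IL-6, with recombinant IL-8, or with IL-6 and IL-8 together at a ratio of 5 to 2 (RM). The comparisons address how density and the 2 cytokines, alone and combined, were accompanied by changes in transcript levels.

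Each condition was sequenced as 1 library of 1 cell line, so no difference could be set against a spread between replicates, no test was possible and no p-value is given. Values are TPM (a transcript level corrected for transcript length and library total), rescaled to sum to 1000000 without RNA5-8S5, a ribosomal RNA entry that took between 51.5% and 79.6% of the counted reads of a library. Between 449661 reads (HD) and 1645539 reads (LD) remained on all other genes. The HD library stood apart from the rest. It held the fewest reads but had a read on the most genes, 20112 against 13468 to 15079 in the other libraries. Reads on 368 olfactory receptor genes numbered 1514 in HD and 24 to 68 elsewhere. Of 7 listed mesenchymal markers 6 were in the files. All of these but THY1 had reads in every library, THY1 having 6 reads in LD, 2 in HD and 0 in the other libraries. They summed to 6549 to 10259 TPM at low density and 1150 TPM in HD, with VIM, which codes for vimentin, the highest in LD. Of 3 epithelial markers, EPCAM had no read at low density and 3 reads in HD, CDH1 had 0 to 6 reads at low density and 34 in HD, and KRT19 had 132 reads (38.5 TPM) in LD, 6 to 35 in the cytokine libraries and 13 (21.0 TPM) in HD. Their summed level ran from 3.23 to 38.5 TPM at low density and was 65.1 TPM in HD. The 4 haematopoietic markers summed to 1.57 to 6.13 TPM at low density and 224 TPM in HD, with CD3E at 0 reads in all 4 low-density libraries, and the 3 endothelial markers summed to 0.69 to 1.52 TPM and 62.9 TPM, with VWF at 0 reads in all 4. These values moved with the HD library, and their part in the HD results below was not tested.

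A ribosome holds 1 copy of nearly every one of its proteins, and growing cells spend much of their messenger RNA on them. Most ribosomal protein messages begin with a 5′ terminal oligopyrimidine (TOP) tract, a C at the cap followed by a run of C and U, through which mTOR signalling and the protein LARP1 control their translation together. A few of the proteins are also known outside the ribosome: RPL5 and RPL11 bind MDM2 when ribosome assembly is disturbed, and RPS6 is phosphorylated by the S6 kinases.

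The start sites of 10 genes that recur in the results are shown because the tract is the feature that most of these genes share and that the choice by symbol did not use. Each line gives 25 bases before and 25 bases from the annotated RefSeq start (GRCh38.p14), 5′ to 3′ on the gene's strand, with the pyrimidine run across the start in capitals. The files were made on GRCh37, so these positions were used for the sequences only.
RPS3, chr11:75399493-75399542, plus strand: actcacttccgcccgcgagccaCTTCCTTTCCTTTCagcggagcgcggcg
RPL41, chr12:56116608-56116657, plus strand: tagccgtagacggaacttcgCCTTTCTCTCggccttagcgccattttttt
RPL13A, chr19:49487583-49487632, plus strand: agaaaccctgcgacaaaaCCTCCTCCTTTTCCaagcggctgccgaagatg
RPS19, chr19:41860230-41860279, plus strand: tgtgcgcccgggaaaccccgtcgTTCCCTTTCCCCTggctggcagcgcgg
RPL18, chr19:48619154-48619203, minus strand: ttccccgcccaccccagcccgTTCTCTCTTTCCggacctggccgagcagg
RPS27, chr1:153990737-153990786, plus strand: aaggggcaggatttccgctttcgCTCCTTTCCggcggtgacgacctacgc
RPS23, chr5:82278330-82278379, minus strand: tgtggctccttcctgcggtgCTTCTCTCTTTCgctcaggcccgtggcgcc
RPS13, chr11:17077643-17077692, minus strand: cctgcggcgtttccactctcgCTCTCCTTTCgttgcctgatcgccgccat
RPS28, chr19:8321471-8321520, plus strand: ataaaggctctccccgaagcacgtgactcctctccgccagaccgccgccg
RPS29, chr14:49598686-49598735, minus strand: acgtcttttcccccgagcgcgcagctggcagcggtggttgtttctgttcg

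A C at the annotated start followed by at least 4 bases that are each C or T, read on the strand of the gene only, was found for 43 of the 63 members in the RefSeq table (68.3%), against 1404 of its 27305 genes (5.14%). With the C allowed within 5 bases of the start, the shares were 79.4% and 25.2%. RPS28 and RPS29 are among the members without such a tract at the annotated start, which says only that these letters are not at that position. In the RPS28 window a C followed by a run of C and T lies just after the annotated start. The other 17 members were not in the table.

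Ribosomal protein messages were among the most abundant of the low-density cells. In LD, 39 of the 80 genes reached 1000 TPM, 32 were among the 100 genes of highest TPM, and the median level was 976 TPM. The median was 318 TPM in HD, 967 TPM with IL-6, 766 TPM with IL-8 and 775 TPM in RM, and the number among the 100 highest genes was 14, 34, 25 and 25. At least 1 read was counted in all 5 libraries for 76 members and at least 10 reads in all 5 for 74, while RPS4Y2 had no read anywhere. The remaining members, RPL3L, RPL10L and RPL39L, had reads in HD alone and are described with the paralogs below.

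The 10 members of highest mean TPM included RPS28, RPL8, RPL41, RPS3, RPS2, RPL13A, RPL28, RPS15 and RPL38, and the 10 were the same when HD was left out of the mean. RPS28, a small protein at the mRNA exit of the small subunit, was at 32369 TPM in LD and 10194 in HD, and 26313 with IL-6, 53822 with IL-8 and 54728 in RM. RPL8, a core protein of the large subunit, was at 15872 TPM in LD and 2803 in HD, and 16580 with IL-6, 19652 with IL-8 and 27786 in RM. Both were highest in RM and lowest in HD, and IL-8 came next to RM. RPL41, the smallest of the ribosomal proteins, was at 9928 TPM in LD and 1720 in HD, and 7513 with IL-6, 7858 with IL-8 and 7369 in RM. RPS3, a small-subunit protein at the mRNA entry that also acts in DNA repair, was at 7346 TPM in LD and 1435 in HD, and 7467 with IL-6, 7256 with IL-8 and 9114 in RM. Among the 76 members with a read in LD, levels ran from 5.1 TPM (RPL22L1) to that of RPS28, and of the 75 pairs of neighbours in that order only 13 had 95% counting intervals that did not overlap. Below the leading 4 genes, for instance, RPL38 at 3650 TPM, RPL28 at 3644 TPM and RPL5 at 3365 TPM were in the upper part of the order, and RPL38 and RPL28 could not be told apart by their counts.

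**Figure D1:**
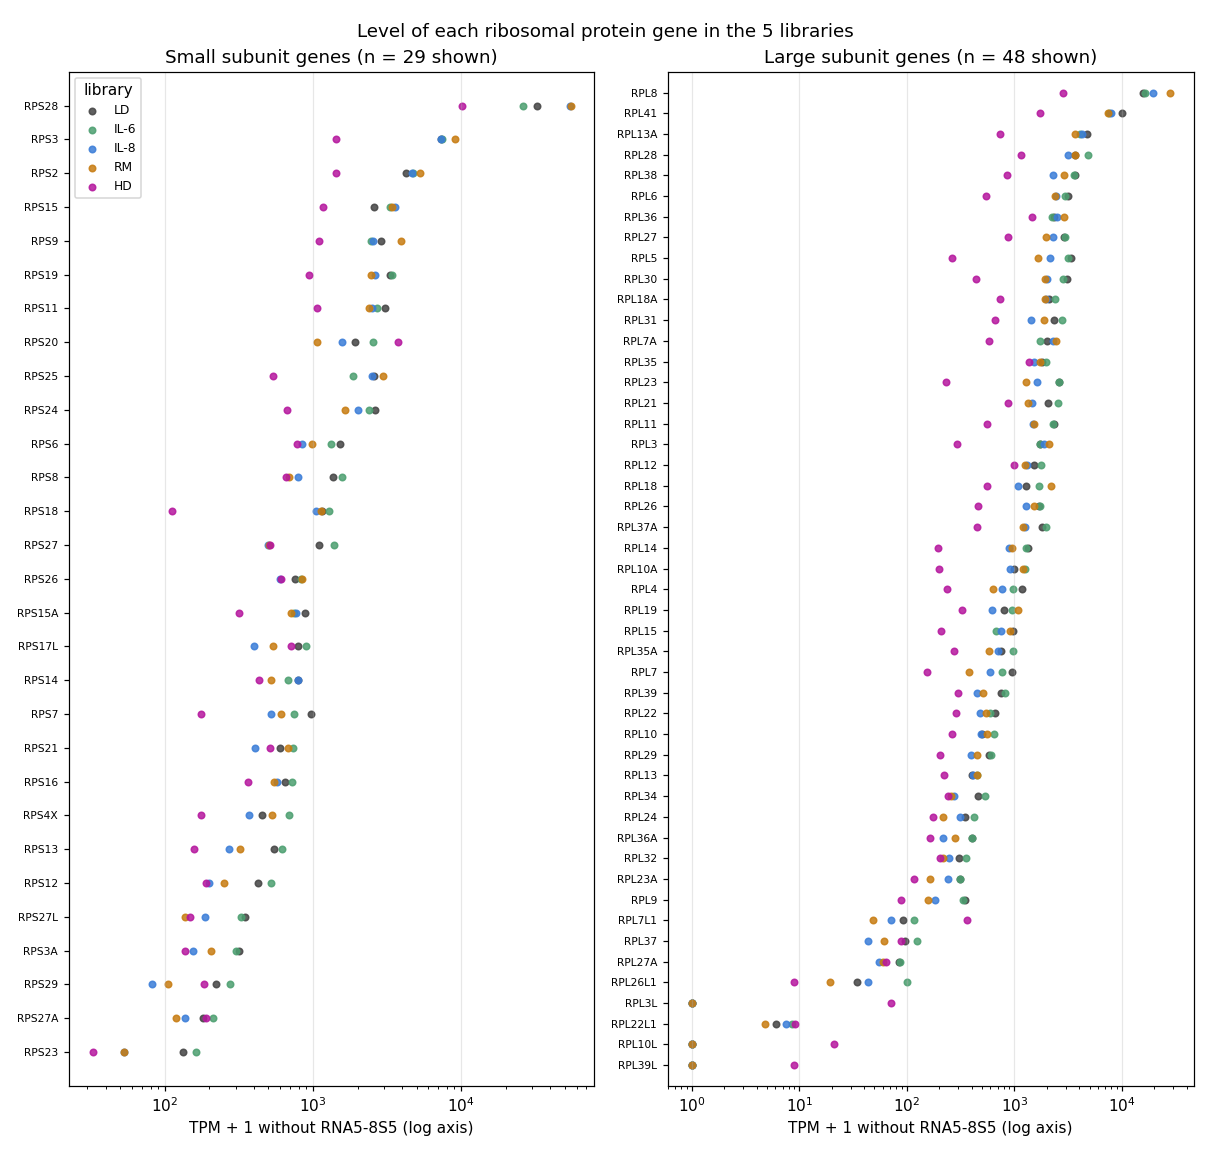
TPM + 1 of each gene without RNA5-8S5 on a log axis, with 1 point per library, for 29 of the 32 small subunit genes (left) and the 48 large subunit genes (right), each ordered by mean level. Most genes have the HD point to the left of the other points, with RPS20 and RPL7L1 among the exceptions. RPS28 and RPL8 head the 2 panels with RM at or near the right end.

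The order of levels across the 74 members with at least 10 reads in all libraries was close between low-density libraries. Across these genes, Spearman's rho of the level with that in LD was 0.98 for IL-6, 0.97 for IL-8 and 0.95 for RM, and 0.8 for HD. The genes are not independent replicates and share transcript length and mapping between libraries, so these values are descriptions.

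The summed reads gave a different picture from the median gene. Of the reads outside RNA5-8S5, the 80 genes took 6.71% in LD (exact binomial 95% interval 6.67 to 6.75%) and 1.6% in HD (1.56 to 1.64%). They took 6.77% with IL-6 (6.72 to 6.82%), 6.8% with IL-8 (6.76 to 6.85%) and 7.9% in RM (7.85 to 7.94%). The intervals cover counting error only, since the cDNA was amplified and no molecular identifiers were used. LD, IL-6 and IL-8 were close, RM was higher and HD was lower. With all counted reads as the total, RNA5-8S5 included, the share was 1.55% in LD and 0.777% in HD, a smaller gap, with that entry at 76.9% of all reads for LD and 51.5% for HD. In such bulk samples fewer cells of a type and less of the RNA per cell cannot be told apart. RPS28 and RPL8 together made up 20.1% of the reads on the 80 genes in LD and 14.7% in HD, and 18.9% with IL-6, 29.9% with IL-8 and 32.5% in RM. Without them, the other 78 genes took 5.36% of the reads in LD and 1.36% in HD, and 5.49% with IL-6, 4.77% with IL-8 and 5.33% in RM. The pair was chosen after seeing the data, so its removal was bound to lower the RM share. Without it RM was close to LD, and the low share in HD remained.

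**Figure D2:**
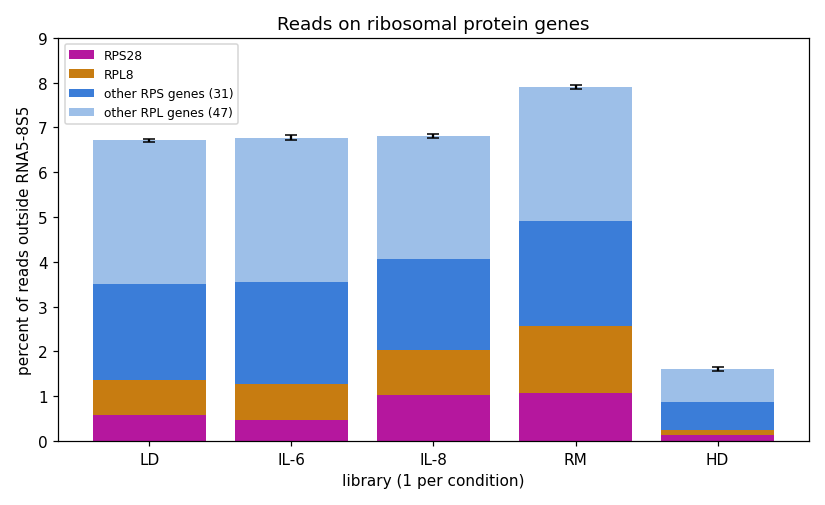
Percent of reads outside RNA5-8S5 on ribosomal protein genes in each library (1 library per condition), stacked as RPS28, RPL8, the other 31 RPS and the other 47 RPL genes; error bars are exact 95% counting intervals of the sum. The RM bar is the highest at 7.9%, with 2.57% from RPS28 and RPL8, and the HD bar reaches 1.6%.

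The subunits did not keep the same balance in all libraries. Small subunit genes made up 47.4% of the summed TPM of the members in LD and 56.4% in HD, and 46.2% with IL-6, 55.4% with IL-8 and 53.6% in RM. RPS28 alone held 32369 of the 79667 TPM on RPS genes in LD, 53822 of 94862 with IL-8 and 54728 of 99744 in RM. The higher RPS sums with IL-8 and in RM rested on this gene. Its level is uncertain because its coding sequence is shared with copies, as described below. In reads, which are not corrected for length, the RPS share was 40.7% in LD and 47.4% in HD, and 40.6% with IL-6, 44.8% with IL-8 and 43.4% in RM. Leaving RPS28 and RPL8 out, the other 31 RPS genes summed to 47298 TPM in LD and 19574 in HD, and 49719 with IL-6, 41040 with IL-8 and 45016 in RM. The other 47 RPL genes summed to 72421 TPM in LD and 20243 in HD, and 72072 with IL-6, 56686 with IL-8 and 58535 in RM. In IL-8 and RM the other genes of both subunits thus summed to less TPM than in LD, while RPS28 and RPL8 were each at a higher level than in LD. In reads this did not hold for the other RPS genes in RM, at 2.36% of reads against 2.15% in LD. The other RPL genes took 2.98% in RM and 3.21% in LD. With IL-8 the read shares were 2.03% (RPS) and 2.74% (RPL), both below LD.

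For differences between 2 libraries, log2(TPM + 1) was subtracted, and a gene was counted as higher or lower when this reached 1 log2 unit, a doubling or halving for all but the lowest levels. For single genes, the ratio of reads scaled to the library total outside RNA5-8S5 is given with an exact 95% counting interval. It can depart from the TPM ratio, since TPM also depends on how reads were assigned to transcripts of different length. The background is the share of genes past the same size, among the 21313 genes that reached 1 TPM in any library (tested genes), or among the 3596 with at least 10 reads in all 5 libraries, called well-counted here. The LD library is shared by the first 4 comparisons and RM by 3, so they are not independent of each other.

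With IL-6 alone, ribosomal protein genes stayed close to LD. Their median difference was 0.07 log2 units and 1 of 80 was higher by at least 1 unit and 0 were lower, against a background of 12.2% of tested genes higher and 8.42% lower (7.59% and 4.59% of well-counted genes). The single gene was RPL26L1, a paralog of the large subunit gene RPL26, with 21 reads in LD and 43 in IL-6 and a read ratio of 3.06 (1.78 to 5.43). Among the next largest differences were RPS4X (0.61), RPS20 (0.41) and RPL28 (0.41). RPL15 (-0.51), RPS25 (-0.46), RPL41 (-0.40), RPS7 (-0.39) and RPL7 (-0.31) lay at the other end. RPS4X is the X-linked form of a small subunit protein and RPS25 is known for its part in internal ribosome entry.

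With IL-8 alone, 8 of 80 genes were lower by at least 1 unit and 0 were higher on the library total, but 1 was lower and 1 higher with median-ratio size factors, and 2 were lower and 1 higher with TMM factors. The background was 18.0% of tested genes lower and 9.4% higher (14.5% and 8.51% of well-counted genes), so the 10.0% of members lower did not exceed it. The median difference was -0.34 on the library total, beside -0.24 for well-counted genes, and became 0.08 with median-ratio size factors and -0.03 with TMM factors. Of the 8 genes, 7 were of the small subunit: RPS29, RPS23, RPS27, RPS12, RPS13, RPS17L and RPS3A, with RPL37 of the large subunit. RPS23, a decoding-centre protein, was at 131 TPM in LD and 31.6 in HD, and 162 with IL-6, 52.1 with IL-8 and 52.3 in RM. LD and IL-6 were both above IL-8, RM and HD, and the read ratio of IL-8 to LD was 0.425 (0.346 to 0.52). RPS27, a zinc-binding small subunit protein, was at 1101 TPM in LD and 513 in HD, and 1390 with IL-6, 493 with IL-8 and 504 in RM, with a ratio of 0.476 (0.372 to 0.603) in IL-8. RPS29, also zinc-binding, was at 222 TPM in LD and 183 in HD, and 276 with IL-6, 80.9 with IL-8 and 104 in RM, with a ratio of 0.339 (0.191 to 0.571) in IL-8 from 18 reads against 78. For both, IL-8 and RM lay below LD and IL-6.

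On the other side, RPS28 had the largest positive difference in IL-8 (0.73, read ratio 1.77, 1.72 to 1.82). It was followed by RPS15 at 0.49, RPL8 at 0.31, RPL7A at 0.18 and RPS2 at 0.14. RPS15 sits near the decoding site and RPS2 at the mRNA entry, and RPL7A is a large subunit protein. Above 0 were 10 of the 80 members on the library total. Among well-counted genes, 8 of 74 members were above 0, beside 1365 of all 3596. The member median turned to 0.08 with median-ratio size factors, so these counts depend on the scaling.

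With the 2 cytokines combined, 8 genes were lower by at least 1 unit and 0 were higher relative to LD on the library total, but 0 were lower and 11 higher with median-ratio size factors, and 0 lower and 6 higher with TMM factors. The background was 22.5% of tested genes lower and 7.11% higher (23.6% and 8.04% of well-counted genes), so the 10.0% of members lower did not exceed it here either. The median of the members, -0.40, equalled that of the well-counted genes on the library total, and the direction turned to 0.26 with median-ratio size factors and to 0.10 with TMM factors. The lower genes were RPS27L, RPL7, RPS23, RPL9, RPS27, RPS29, RPL5 and RPL23. RPS27L, a paralog of RPS27 induced by p53, was at 349 TPM in LD and 147 in HD, and 324 with IL-6, 186 with IL-8 and 135 in RM. RPL7, a large subunit protein, was at 946 TPM in LD and 154 in HD, and 764 with IL-6, 594 with IL-8 and 375 in RM, with a read ratio of 0.437 (0.379 to 0.503) in RM. RPL5, the carrier of 5S ribosomal RNA, was at 3365 TPM in LD and 263 in HD, and 3160 with IL-6, 2136 with IL-8 and 1665 in RM. Each of these was highest in LD, with IL-6 next to it and IL-8 between IL-6 and RM. RPL11, which binds 5S RNA together with RPL5, was at 2326 TPM in LD and 550 in HD, and 2277 with IL-6, 1503 with IL-8 and 1511 in RM.

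RPL8 showed the largest positive difference in RM (0.81, read ratio 1.93, 1.89 to 1.97), ahead of RPL18 (0.78, ratio 1.85, 1.71 to 2.0), RPS28 (0.76, ratio 1.86, 1.82 to 1.91), RPS9 (0.44) and RPL19 (0.43). RPL18, a large subunit protein, was at 1289 TPM in LD and 558 in HD, and 1707 with IL-6, 1082 with IL-8 and 2208 in RM. Its RM level was above the others and its IL-8 level was below LD, unlike for RPL8 and RPS28. In all, 19 of the 80 members were above 0 in RM on the library total. Among well-counted genes, 19 of 74 members were above 0, beside 1159 of all 3596. The member median turned to 0.26 with median-ratio size factors, so these counts depend on the scaling.

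Members with a GC-rich coding sequence had higher differences from LD in IL-8 and RM than members with a GC-poor one. Across the 73 members with at least 10 reads in all libraries and a coding sequence in GENCODE 29, Spearman's rho between the difference and the GC content was 0.64 for IL-8, 0.66 for RM, 0.11 for IL-6 and 0.09 in HD. Over the other 3172 well-counted genes with a coding sequence it was 0.23, 0.18, 0.07 and -0.20. These points share libraries, and GC content in the members goes with other properties. The difference also went with the mean level, at rho 0.50 in IL-8 and 0.49 in RM, so the properties cannot be told apart here, and the correlations are descriptions. The 24 members lowest in GC (42.1 to 47.3%) had a median difference of -0.66 in IL-8 and -0.64 in RM, beside -0.47 and -0.62 for other genes in that GC range. The 25 members highest in GC (53.8 to 63.0%) had -0.17 and 0.14, beside -0.12 and -0.26. RPS28 and RPL8, at 62.3% and 61.0% GC, were at the GC-rich end, and RPS23, at 45.5%, was among the 24 GC-poor members. RPS29, at 53.6% GC, was an exception with the lowest value in IL-8. Relative to the median difference of genes in the same of 10 classes of GC content, the median of the members was -0.07 in IL-8 and 0.01 in RM.

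**Figure D3:**
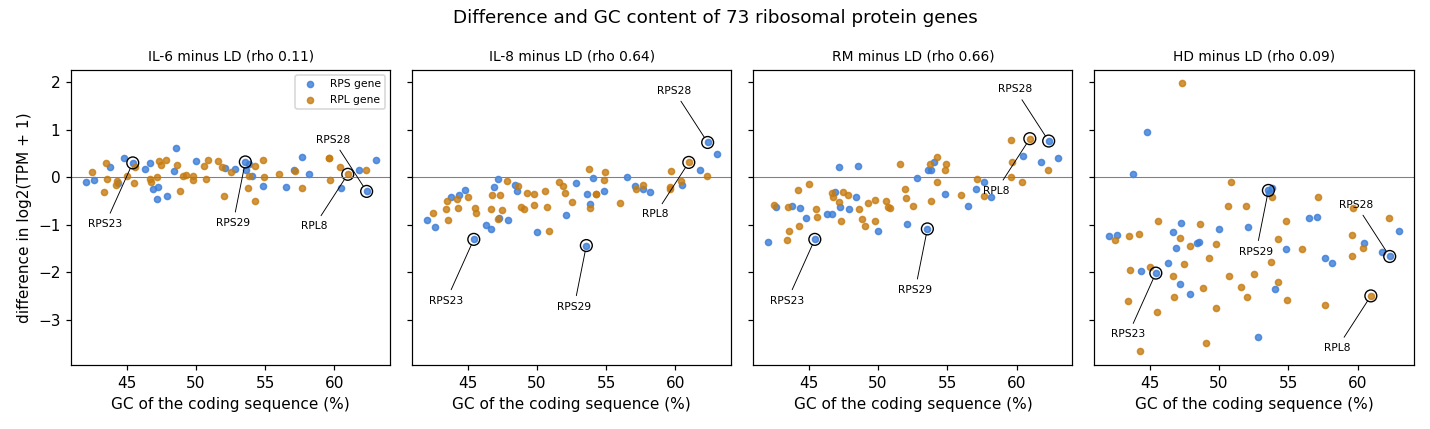
Difference in log2(TPM + 1) against the GC content of the coding sequence (%) for 73 ribosomal protein genes, with 1 panel per comparison with LD and 1 point per gene, RPS genes in blue and RPL genes in orange, with rings on 4 named genes. Points rise from left to right in the IL-8 (rho 0.64) and RM (rho 0.66) panels and show little slope in the IL-6 (0.11) and HD (0.09) panels.

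At high density, 55 of 80 members (68.8%) were lower by at least 1 unit and 4 were higher. The background was 20.3% of tested genes lower and 60.1% higher, and 33.6% lower and 30.5% higher among the well-counted genes. The median of the members was -1.40, against 1.85 for all tested genes and -0.13 for well-counted genes. It was -1.47 for the 74 well-counted members, of which 54 were lower and 1 was higher. The tested genes include some that reached 1 TPM in HD alone, such as RPL3L. Their 60.1% higher and median of 1.85 follow in part from that filter (0.6 without it), so the well-counted genes are the closer contrast. RPL5 had the largest negative difference (-3.67), at 3239 reads in LD and 51 in HD, a read ratio of 0.0576 (0.0428 to 0.0759). RPL23 (-3.49), RPS18 (-3.36), RPL30 (-2.83) and RPL14 (-2.76) followed in this TPM difference. Their read ratios were 0.0823 (0.0549 to 0.119), 0.0768 (0.0381 to 0.139), 0.155 (0.118 to 0.2) and 0.108 (0.0733 to 0.155). The order by read ratio differed, with RPL13A at 0.114 below RPL30. RPL23 is another binder of MDM2 and RPS18 lies at the head of the small subunit. RPS19, the gene most often mutated in Diamond-Blackfan anaemia, was at 3288 TPM in LD and 937 in HD, and 3434 with IL-6, 2638 with IL-8 and 2464 in RM. RPL13A, of the GAIT complex that blocks translation after interferon gamma, was at 4751 TPM in LD and 737 in HD, and 4037 with IL-6, 4241 with IL-8 and 3629 in RM. RPS6 was at 1527 TPM in LD and 783 in HD, and 1328 with IL-6, 846 with IL-8 and 986 in RM. For RPS19 and RPL13A the HD level was well apart from the other libraries, while for RPS6 it was close to IL-8. Members with fewer reads had wide intervals in HD, where 41 of 80 members reached 50 reads, against 72 to 74 in the other libraries. Across 73 well-counted members the HD difference had a rho of -0.42 with the mean level and -0.28 with the coding length. Members of higher level thus tended to have larger falls. The background genes were not matched for level, and the part of abundance in the HD difference was not tested.

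Members with and without a TOP tract at the annotated start gave medians close to each other. In HD the median difference was -1.33 for the 43 members with the tract and -1.52 for the 20 without, and in RM it was -0.39 and -0.25. With the C allowed within 5 bases of the start, 50 of the 63 members had a tract. The 20 without thus include some with a tract nearby, so the split does not separate members with a tract from members lacking one. Of the genes whose start is printed above, RPS3 and RPL13A carry long tracts across the annotated start. RPS28 has none at that position, but a run of C and T begins just after it. All 3 were lowest in HD.

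A few members were not lower at high density, and the 4 higher by at least 1 unit were RPL7L1, RPL3L, RPL10L and RPL39L. RPS20, a small subunit protein, was at 1921 TPM in LD and 3721 in HD, and 2550 with IL-6, 1576 with IL-8 and 1057 in RM, with a read ratio of 1.43 (1.3 to 1.58) between HD and LD from 576 and 1470 reads. It was the only member of more than 1000 TPM in any library whose level was highest in HD. RPL7L1, a paralog of RPL7 placed in ribosome assembly, was at 90.9 TPM in LD and 362 in HD, and 116 with IL-6, 70.1 with IL-8 and 47.7 in RM, with a read ratio of 3.07 (2.28 to 4.11). RPS27A, which encodes ubiquitin fused to a small subunit protein, was at 180 TPM in LD and 188 in HD, and 209 with IL-6, 135 with IL-8 and 118 in RM, and its read ratio of 0.77 (0.509 to 1.13) did not separate HD from LD. RPL22L1 (0.57) rested on 4 reads in HD and 10 in LD. Next among members with at least 50 reads were RPL37 (-0.11) and RPS17L (-0.16), both below LD. Their read ratios were 0.707 (0.454 to 1.06) and 0.679 (0.503 to 0.904). RPL3L, RPL10L and RPL39L had 21, 3 and 1 reads in HD and 0 elsewhere. For RPL3L this is a level at least 25.6-fold higher than in LD when LD is set to a floor of 3 reads, and for the others no fold is given. The HD library also had reads on 226 of the 368 olfactory receptor genes, against 21 in LD. Whether the reads on these members have the same origin was not tested.

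**Figure D4:**
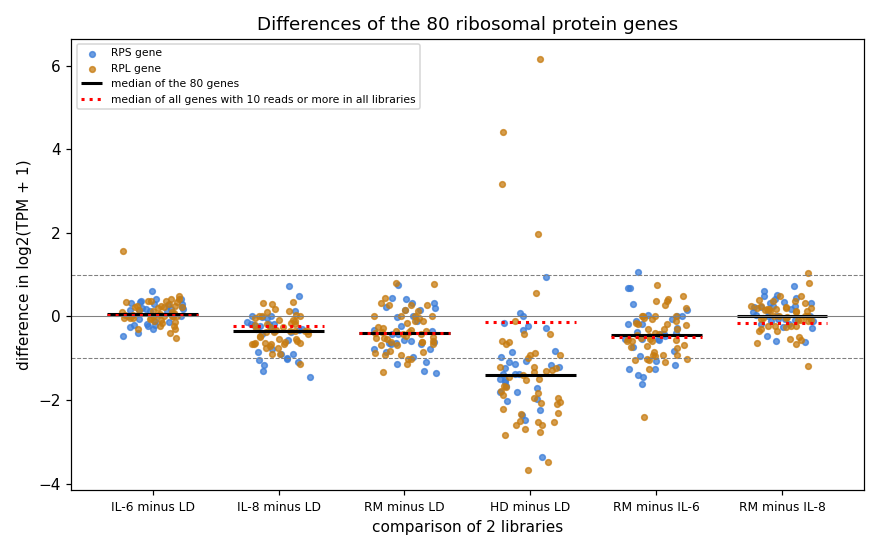
Difference in log2(TPM + 1) of each of the 80 genes in the 6 comparisons of 2 libraries, 1 point per gene, with the median of the 80 genes (solid bar), the median of the well-counted genes (dotted bar) and dashed lines at 1 and -1. In HD minus LD the solid bar lies at -1.40 and the dotted bar at -0.13, while in RM minus LD both lie at -0.40, a position on the library total that turns to 0.26 with median-ratio size factors.

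Against IL-6 alone, the combined cytokines gave 14 members lower by at least 1 unit and 1 higher on the library total, but 1 lower and 10 higher with median-ratio size factors, and 1 lower and 8 higher with TMM factors. The background was 26.0% of tested genes lower and 6.92% higher (26.5% and 7.76% of well-counted genes), and the median of the members was -0.43, beside -0.49 for well-counted genes, with a turn to 0.26 under median-ratio size factors and 0.12 under TMM. RPS28 was the higher gene (1.06, read ratio 2.29, 2.22 to 2.36), followed by RPL8 (0.74, ratio 1.84, 1.8 to 1.89), RPS25 (0.67), RPS9 (0.67) and RPL7A (0.50). RPL26L1 (-2.40), RPS23 (-1.61), RPS27 (-1.46), RPS29 (-1.41) and RPS20 (-1.27) were the lowest. RPL26L1 rested on 11 reads in RM and 43 in IL-6.

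Against IL-8 alone, RM differed little in these genes on the library total. The median was 0.02, with 1 gene higher and 1 lower, against 10.9% and 16.9% of tested genes (11.4% and 17.5% of well-counted genes). It became 0.33 with median-ratio size factors and 0.28 with TMM factors, each with 2 genes higher and 0 lower. The higher gene was RPL18 (1.03, read ratio 2.07, 1.89 to 2.27) and the lower was RPL26L1 (-1.19, on 11 and 20 reads). RPL19 (0.79), RPS21 (0.73), RPS9 (0.61) and RPS4X (0.52) followed RPL18. RPL7 (-0.66), RPS14 (-0.61), RPS20 (-0.58), RPL23A (-0.56) and RPL7L1 (-0.55) were at the other end among genes with at least 50 reads. RPS14 is the small subunit gene tied to the anaemia of the 5q- syndrome, and RPS9 forms part of the shoulder of that subunit.

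Several ribosomal proteins have a paralog, in some cases one of restricted expression. RPL7L1 was 8.77% of the summed TPM of RPL7 and RPL7L1 in LD and 70.2% in HD, and 13.2% with IL-6, 10.6% with IL-8 and 11.3% in RM. RPL7L1 was above RPL7 in HD alone, where RPL7 had 24 reads and RPL7L1 had 88. RPS27L made up 24.1% of its pair with RPS27 in LD and 22.2% in HD, and 18.9% with IL-6, 27.4% with IL-8 and 21.2% in RM, with no more than 364 reads on either. RPL36A and its copy RPL36AL were near equal, with RPL36A at 47.3% of the pair in LD and 57.1% in HD, and 49.4% with IL-6, 49.2% with IL-8 and 55.7% in RM. RPL22L1 stayed below 3% of its pair with RPL22, on 4 to 10 reads, and RPL26L1 between 1.17% and 5.43% of its pair with RPL26, on 1 to 43 reads. RPL3L, a form of striated muscle, and RPL10L, a form of the testis, had no read at low density, nor had RPL39L.

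Reads of 50 bases do not always place a ribosomal protein message uniquely, since these genes have many processed copies. Only coding sequences were cut into 50-base stretches, so the untranslated parts of the messages were not examined. Of the 79 members with a coding sequence, 8 shared all of these stretches with some other annotated gene (RPL21, RPL36A, RPL39, RPL41, RPS26, RPS27, RPS28 and RPS3A), 36 shared at least 50% of them and 19 shared under 10%. The levels of RPS28 and RPL41, at 100% of the coding stretches each, are therefore uncertain in how reads were split with copies. For RPL41 these were only 26 stretches. For RPL8 the share was 4.57%, for RPL18 3.88%, for RPS19 2.07% and for RPL11 3.09%. It was 51.9% for RPS20 and 64.8% for RPL7L1, whose higher levels in HD carry that uncertainty. Across 73 members, rho between this share and the difference was -0.08 for IL-8, -0.09 for RM and -0.01 in HD.

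Most of the 8 ribosomal protein genes on a list outside the symbol rule were also lower at high density. They included RPLP0, RPLP1, RPLP2, RPSA, RPL36AL, FAU and GNB2L1. Of the 8, 6 were lower by at least 1 unit in HD (median -1.87), beside 20.3% of tested and 33.6% of well-counted genes. RPLP2 (-0.45) was among those that did not reach 1 unit. RPLP1, an acidic stalk protein, was at 31775 TPM in LD and 8580 in HD, and 26586 with IL-6, 37572 with IL-8 and 33643 in RM, close to RPS28 in LD. RPSA, also known as a laminin receptor, was at 1569 TPM in LD and 537 in HD, and 1758 with IL-6, 2425 with IL-8 and 2187 in RM. In IL-8 and RM, 1 of the 8 was lower (RPL36AL) and the medians were 0.07 and -0.08. Of tested and well-counted genes, 18.0% and 14.5% were lower in IL-8, and 22.5% and 23.6% in RM. The count of 1 did not exceed these shares. GNB2L1, the scaffold RACK1, was at 4987 TPM in LD and 646 TPM in HD.

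Other messages known to carry a TOP tract were lower in HD too, with 20 of 22 past 1 unit and a median of -2.55, beside 20.3% of tested and 33.6% of well-counted genes lower. VIM (-3.40) is on this list and also among the mesenchymal markers. The mesenchymal markers outside this list were at -2.90 (LGALS1), -2.75 (CD44), -2.11 (MMP14), -1.26 (FN1) and 0.55 (THY1, on few reads). Lower levels in HD were thus not particular to TOP messages. EEF1G, a subunit of elongation factor 1, was at 5033 TPM in LD and 296 in HD, and 4051 with IL-6, 5690 with IL-8 and 6693 in RM. TPT1, the translationally controlled tumour protein, was at 5208 TPM in LD and 276 in HD, and 4526 with IL-6, 4798 with IL-8 and 4252 in RM. In RM 6 of the 22 were lower (median -0.58), near the background of 22.5% of tested and 23.6% of well-counted genes. In IL-8 2 were lower and 1 was higher, where 18.0% of tested and 14.5% of well-counted genes were lower. Of 32 ribosome biogenesis genes, 21 were lower and 4 higher in HD (median -1.85), 8 were lower in RM (median -0.47), and 5 were lower and 2 higher in IL-8 (median -0.49). In RM and IL-8 these counts were near the same backgrounds. NCL, the nucleolar protein nucleolin, was at 772 TPM in LD and 77.6 in HD, and 570 with IL-6, 546 with IL-8 and 481 in RM, while PES1, a factor of large subunit maturation, was at 771 TPM in LD and 229 in HD, and 933 with IL-6, 1200 with IL-8 and 1056 in RM. LTV1, a factor of small subunit assembly, was at 59.6 TPM in LD and 737 in HD, and 74.1 with IL-6, 33.2 with IL-8 and 27.5 in RM, the reverse direction at high density from NCL and PES1.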

How the data were processed

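HT1080 RNA was primed on poly-A with oligo-dT, its cDNA amplified as a whole pool with phi29 polymerase, tagmented and sequenced as 1 library per condition. The submitters' processing notes name Bowtie2 2.3.1, RSEM 1.2.25 and CASAVA 1.4 with GRCh37, and the annotation is not given in the sources used here. The authors deposited a whole-number read count per gene, without normalization, and a TPM value per gene. Here RNA5-8S5 was removed and TPM rescaled to 1000000. Counts gave shares, read ratios and their exact 95% intervals, and 3 reads corresponded to between 1.82 CPM (reads scaled to a total of 1000000) in LD and 6.67 in HD. Members named were the 10 of highest mean TPM, the 5 largest differences in each direction among those with at least 50 reads in a comparison, paralogs and 8 genes of known further roles. The members and lists were chosen with earlier results of these data known. LTV1, PES1, NCL, EEF1G and TPT1 were named after their values were seen. Coding sequences came from GENCODE 29 by symbol (79 of 80 members), and a GC comparison over all tested genes was void because 75.6% of them had a match, against 90.2% of well-counted genes. Alternatives were CPM, median-ratio and TMM factors (edgeR 4.0.16), pseudocounts of 0.1 and 5, read filters and a threshold of 2 log2 units. The scripts recovered planted differences in simulated counts. Python 3.11.15, pandas 2.3.3 and scipy 1.17.1 were used. A few genes that the naming rule or the lists hold are not reported here by name.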

Additional observations from a re-analysis of the deposited data

How the results depend on the processing

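With 1 library per condition no replicate could be left out. No paired analysis was possible because each group has 1 library. Of 145 values recomputed under an alternative, 91 were classed as close to the reported ones, 45 as moved and 9 as reversed. These classes understate the changes. Counts of members past 1 unit were classed by their total, so the turn in RM from 8 lower to 11 higher was classed as close. Some values near 0, such as the IL-6 share of reads, changed sign but were classed as moved. Where a value changed, the cause was not tested.

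The median difference of the 80 genes kept its sign in HD, at -1.396 as reported, and ran from -1.142 (46 lower) with RNA5-8S5 kept in the scaling to -2.34 (71 lower) with TMM factors. In IL-8 it went from -0.342 to 0.076 with median-ratio factors and -0.033 with TMM. In RM it went from -0.398 to 0.256 and 0.095, and in RM against IL-6 from -0.434 to 0.263 and 0.124. In RM against IL-8 it went from 0.016 to 0.326 and 0.284. Relative to genes in the same of 10 classes of GC content, an alternative chosen after seeing the data, the medians were -1.225 in HD (44 lower), -0.066 in IL-8, 0.012 in RM, -0.002 in RM against IL-6 and 0.2 in RM against IL-8.

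Members past 1 unit numbered 5 in IL-8, 4 in RM and 9 in RM against IL-6 in CPM, against 8, 8 and 15 in TPM. Other scalings left few of them in IL-8 and turned the direction in RM and in RM against IL-6. With median-ratio factors there were 2 in IL-8 (1 higher and 1 lower, from 0 and 8) and 11 in RM against IL-6 (10 higher and 1 lower, from 1 and 14), and 11 in RM (all higher, from 8 lower). With TMM there were 3 in IL-8 (1 higher and 2 lower), 6 in RM (all higher) and 9 in RM against IL-6 (8 higher and 1 lower). With at least 10 reads in all libraries, 0 remained in IL-6 and 1 in RM against IL-8. At 2 log2 units there were 24 in HD, 1 in RM against IL-6 and 0 in IL-6, IL-8, RM and RM against IL-8. Relative to the GC class there were 0 with IL-6, 1 (lower) with IL-8, 2 (higher) in RM, 4 (3 higher) in RM against IL-6 and 1 in RM against IL-8.

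As a log2 ratio to LD, the share of reads was 0.013 with IL-6, 0.02 with IL-8, 0.235 in RM and -2.068 in HD. With all counted reads as the total these were -0.085, -0.16, 0.095 and -0.998. As a share of TPM they were -0.028 in IL-6, 0.148 in RM and -1.669 in HD. Over well-counted genes they were 0.0 with IL-8, 0.185 in RM and -1.569 in HD. With the 8 further ribosomal proteins they were -0.004 with IL-6, 0.072 with IL-8 and -2.121 in HD. Without RPS28 and RPL8, chosen after seeing the data, they were 0.035, -0.169, -0.008 and -1.974. The RPS percent of the members in CPM was 40.7 in LD, 47.4 in HD, 43.4 in RM, 40.6 with IL-6 and 44.8 with IL-8. In HD, 39 members had fewer than 50 reads, which limits the precision of their differences.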
